A study of Mus musculus with 3 samples.

Results

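Complement is a cascade of secreted proteins that marks damaged cells and microbes for removal. The classical route starts when C1q, assembled from the chains encoded by C1qa, C1qb and C1qc, binds its target. The alternative route amplifies itself through C3 and factor B, which Cfb encodes, and both routes end in cleavage of C5, which Hc encodes in mice. Liver makes most circulating complement, while C1q comes mainly from macrophages and related cells, and lung epithelium is known to make C3 and C5. The 6 genes Hc, C3, Cfb, C1qa, C1qb and C1qc, of 32287 features counted, are described here across the cell classes of 3 sorted lung libraries. They were chosen as epithelial (Hc, C3, Cfb) and macrophage (C1q) genes, and their levels had no part in forming the cell classes.

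All mice carried Scgb1a1-CreER, Sftpc-DreER and the dual reporter R26-TLR, had received bleomycin, a drug that injures the alveoli, and were taken 4 weeks later. Cells from digested whole lung were sorted by colour into the Club-Tracer library (tdTomato+, label set through the club cell gene Scgb1a1), the AT2-Tracer library (ZsGreen+, label set through the surfactant gene Sftpc) and the BASC-Tracer library (both colours, the pattern of bronchioalveolar stem cells). There was 1 library per lineage, no uninjured library was analysed here, and neither the number of mice behind a library nor their age or sex is given in the sources used here. Every difference below therefore has no replicate check and carries no p-value. Intervals are 95% intervals for counting error only and leave out variation between cells and between animals.

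After removal of barcodes with under 500 genes or over 15% mitochondrial UMIs (unique molecular identifiers, 1 for each captured molecule), the libraries held 3196 Club-Tracer, 1402 BASC-Tracer and 5859 AT2-Tracer barcodes, with medians of 15406, 15222 and 9682 UMIs. The red reporter tdT had 0.925 counts per 1000000 UMIs (CPM) in AT2-Tracer barcodes, against 622 in Club-Tracer and 1173 in BASC-Tracer ones. The green reporter ZsGFP had 26.2 CPM in Club-Tracer barcodes, against 8046 in BASC-Tracer and 5812 in AT2-Tracer ones. Pairs of libraries shared 6 to 23 barcode sequences. Although the labels call all cells epithelial, 31.6% of AT2-Tracer barcodes fell in the immune lineage, against 9.20% in the BASC-Tracer and 2.10% in the Club-Tracer library. Macrophages of the AT2-Tracer library carried little reporter transcript, with ZsGFP at 162 CPM in alveolar and 71.5 CPM in other macrophages against 7215 CPM in the AT2 class.

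Cell classes were gated on panels of marker genes without any complement gene, and 18 groups of 1 class in 1 library held at least 50 barcodes. The AT2 class (alveolar type 2, the surfactant-making cells) held 524 Club-Tracer, 409 BASC-Tracer and 1630 AT2-Tracer barcodes. The club class held 1060 Club-Tracer and 195 BASC-Tracer barcodes. Macrophages of the AT2-Tracer library fell into 448 alveolar macrophages, set by Chil3, Ear1, Marco and related genes, and 483 other macrophages, set by Ms4a7, Cd163, Mmp12 and related genes. The BASC-Tracer library held 80 other macrophages, and the Club-Tracer library held none. A further 182 AT2-Tracer barcodes passed a neutrophil panel through S100a8 (1993 CPM) while Ly6g was at 0 and the alveolar macrophage gene Chil3 stood at 23337 CPM. They are called S100a8-high immune barcodes and carry no cell type name. Gates cut a graded score, and 201 Club-Tracer, 160 BASC-Tracer and 570 AT2-Tracer barcodes lay within 0.05 of the score limit.

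**Figure D1:**
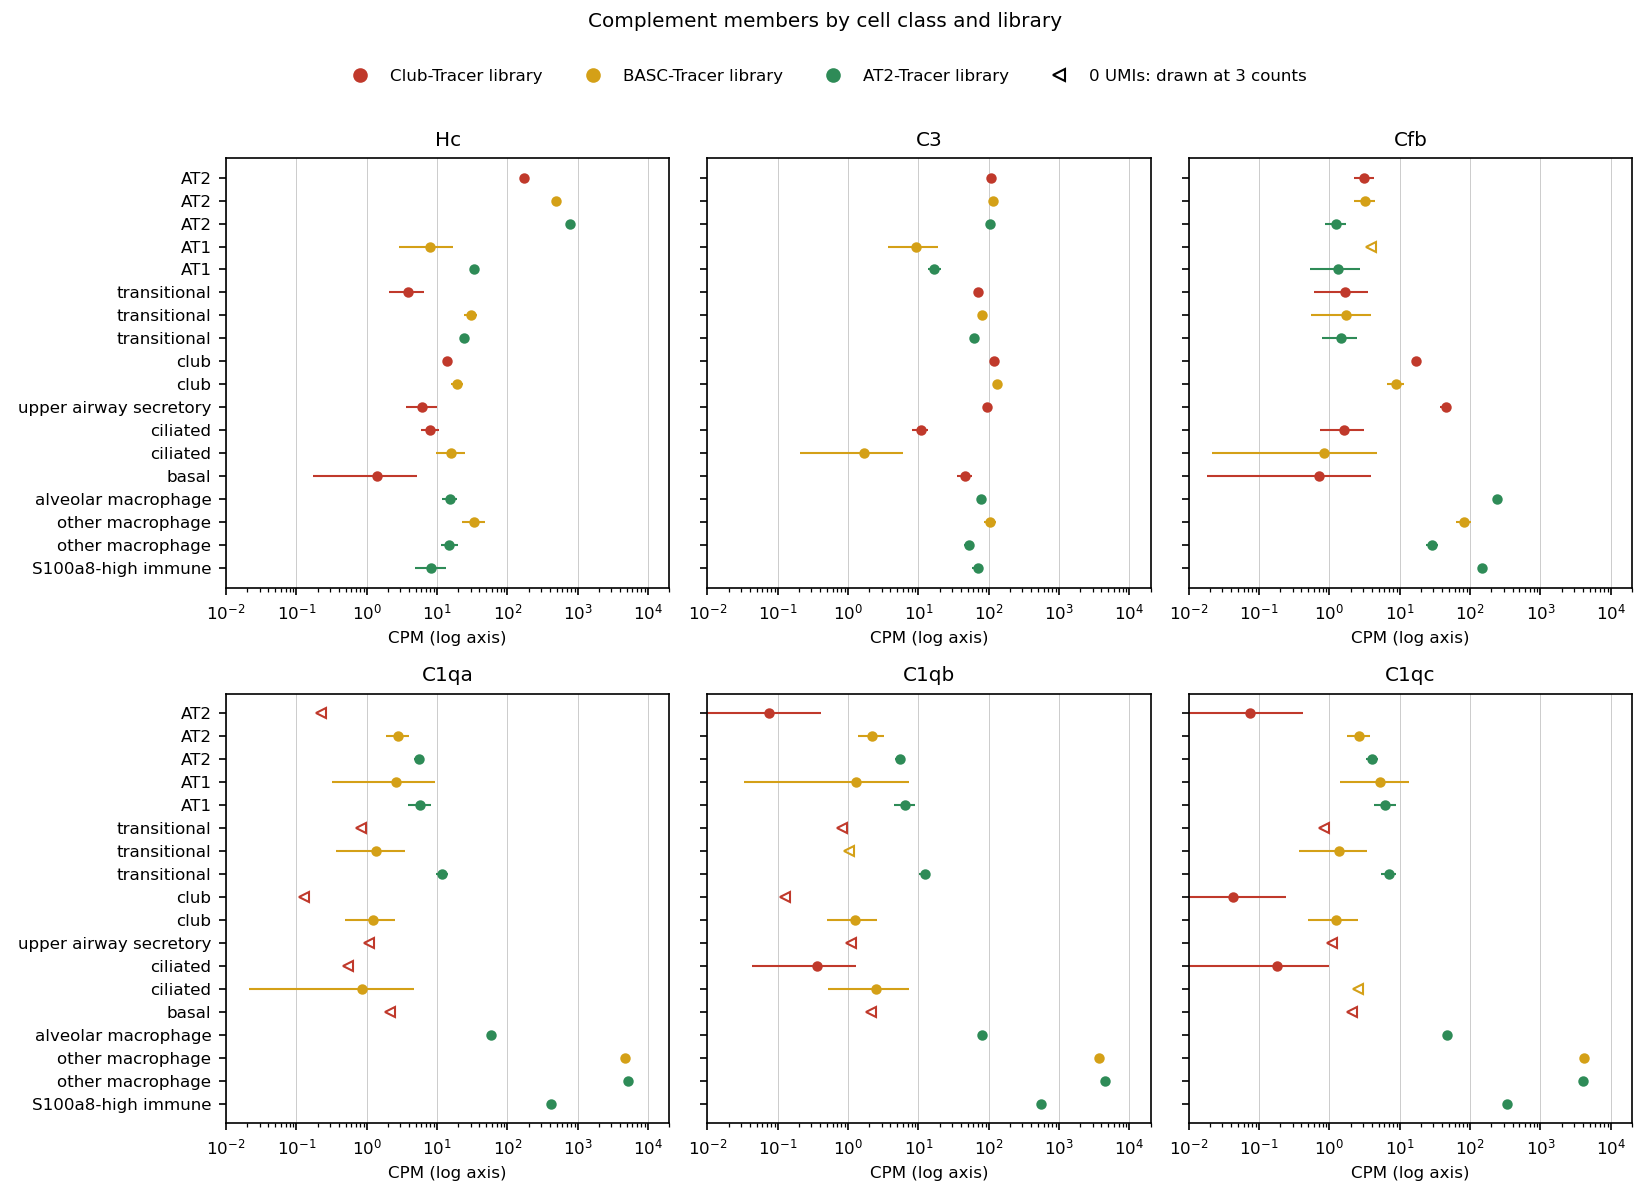
Level of each complement member in the 18 class-by-library groups of at least 50 barcodes, as CPM on a log axis, with points for the group and bars for the 95% Poisson interval. Hc is highest in the 3 AT2 groups, C3 is spread over many classes, Cfb is highest in alveolar macrophages, and the C1q genes lie at 3734 to 5232 CPM in the 2 groups of other macrophages and at 561 CPM or less elsewhere.

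In the AT2-Tracer library Hc was higher in epithelium and C1q in macrophages, C3 was nearly even, and Cfb was higher in macrophages, against its choice as an epithelial gene. There the epithelial lineage (3572 barcodes) had 459 CPM of Hc (95% interval 454 to 465) and the 931 barcodes of the macrophage gate 15.1 CPM, a ratio of 30.4 (25.4 to 36.6). C3, the central component, stood at 80.7 CPM in the epithelial lineage and 66.1 CPM in the macrophage gate, a ratio of 1.22 (1.12 to 1.34). That direction did not hold under every setting: the log2 ratio of 0.29 became -0.0025 with median-ratio scaling, 0.031 with barcodes weighted equally and 0.067 with alveolar macrophages only. Cfb ran the other way, at 1.30 CPM in the epithelial lineage and 147 CPM in the macrophage gate, a ratio of 113 (87.9 to 147) in favour of macrophages. The C1q genes were 278 to 327 times as high in the macrophage gate, with C1qa at 2335 against 7.29 CPM. On the scale log2(CPM + 5), 5 of the 6 members were at least 2-fold apart, beside 38% of the 7236 genes that reached 20 CPM in either gate. The members were chosen for this contrast with earlier results of these data known, so their count is a description and no test.

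**Figure D2:**
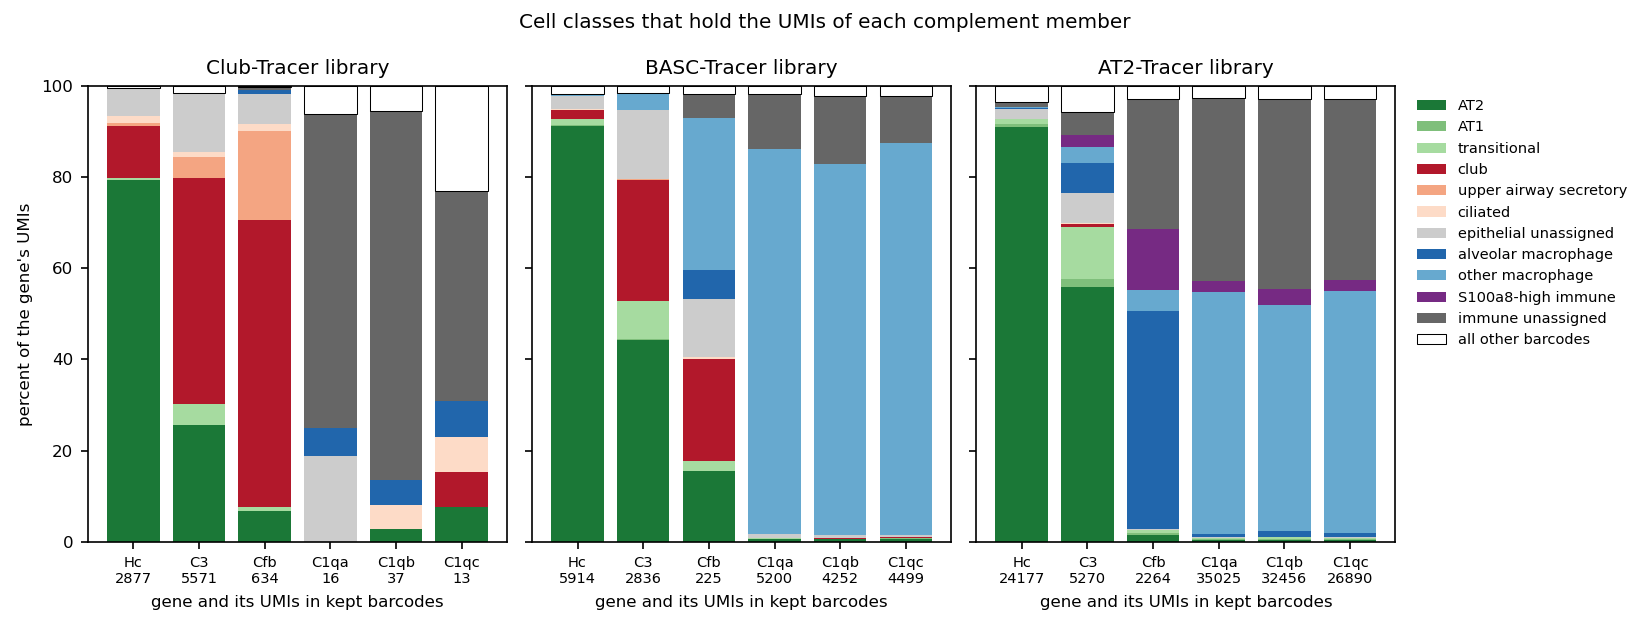
Share of each member's UMIs held by each cell class, for kept barcodes of the 3 libraries, with the gene's UMI total under its name. The AT2 class (dark green) holds 79.3% to 91.3% of Hc UMIs in every library, while club barcodes (red) hold 63.1% of Cfb UMIs in the Club-Tracer library and alveolar macrophages (dark blue) hold 47.8% in the AT2-Tracer library.

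C5 transcript was the most restricted of the epithelial members. The AT2 class held 79.3% of Hc UMIs among Club-Tracer, 91.3% among BASC-Tracer and 91.0% among AT2-Tracer barcodes, while making up 16.4%, 29.2% and 27.8% of them. Its level there was 169.8 CPM (163 to 177) for Club-Tracer, 486 CPM (474 to 499.6) for BASC-Tracer and 786 CPM (776 to 796) for AT2-Tracer. These 3 groups stood apart from each other and from all 15 other groups, of which the highest was AT1 in the AT2-Tracer library at 33.7 CPM. Below them the intervals of neighbours in the order overlapped, from 33.7 CPM down to 1.41 CPM in basal cells.

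In droplet data free RNA gives UMIs in cells that do not make a gene, and Sftpc, an abundant AT2 transcript, serves as its scale. In the AT2-Tracer library Hc came to 8.35 UMIs per 1000 Sftpc UMIs in the AT2 class and 8.43 in alveolar macrophages, and to 10.4 in barcodes under 500 genes. The low Hc level of alveolar macrophages, near the ratio of those droplets, is not read as expression. Other macrophages were above both ratios, at 17.5 per 1000 (13.1 to 22.9) from 53 Hc UMIs, and 45 dendritic barcodes were at 50.3 per 1000 from 26 Hc UMIs. Barcodes left out for over 15% mitochondrial UMIs were at 41.8 per 1000 (38.7 to 45.0), so the scale depends on which left-out barcodes are taken. AT1 and transitional barcodes were at 5.36 and 4.31 per 1000, below the AT2 class and the barcodes under 500 genes. This scale therefore does not set their Hc apart from free RNA. Club barcodes of the Club-Tracer library had 25.8 Hc UMIs per 1000 Sftpc UMIs against 2.59 in that library's AT2 class, at 13.9 CPM of Hc, which was 12.2-fold (10.9 to 13.8) lower than in that class. In that comparison 12.3% of genes were at least 2-fold apart.

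The libraries differed in Hc within the AT2 class itself. Hc was 4.63-fold lower (4.43 to 4.83) in Club-Tracer than in AT2-Tracer barcodes, 2.86-fold lower (2.73 to 3.01) in Club-Tracer than in BASC-Tracer barcodes, and 1.62-fold lower (1.57 to 1.66) in BASC-Tracer than in AT2-Tracer barcodes. Among all genes, 5.48% of 5890, 1.05% of 5879 and 1.76% of 6009 were at least 2-fold apart in these 3 comparisons, which reuse the same AT2 groups. At a common depth of 1500 UMIs, 21.2% (17.7 to 24.9) of Club-Tracer, 38.1% (33.3 to 43.2) of BASC-Tracer and 55.2% (52.7 to 57.7) of AT2-Tracer barcodes of the class had an Hc UMI. Without thinning the shares were 69.5%, 72.6% and 85.0%, at median depths of 25144, 26384 and 16608 UMIs. The median barcode held 2, 5 and 9 Hc UMIs, and the most in 1 barcode was 30, 176 and 125. Median depth was highest in the BASC-Tracer and lowest in the AT2-Tracer barcodes. Beyond the shares at 1500 UMIs, the part of depth in the Hc difference was not tested.

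C3 and Cfb did not follow Hc across the AT2 class. C3 was at 106 CPM (101 to 112), 113 CPM (107 to 120) and 105 CPM (102 to 109) in Club-Tracer, BASC-Tracer and AT2-Tracer barcodes, and the ratio of Club-Tracer to AT2-Tracer was 1.01 (0.944 to 1.07). Cfb was at 3.13, 3.15 and 1.25 CPM, from 42, 35 and 35 UMIs. Scgb1a1, the club cell secretoglobin, came to 61187 CPM in Club-Tracer and 58.4 CPM in AT2-Tracer barcodes of the class, and the club panel had a median of 55.4 against 6.75 UMIs per 10000. The part of these airway transcripts in the Hc difference was not tested. The median gene stood 0.15 lower in Club-Tracer barcodes on the log2 scale, and relative to it the Hc difference was -2.03.

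**Figure D3:**
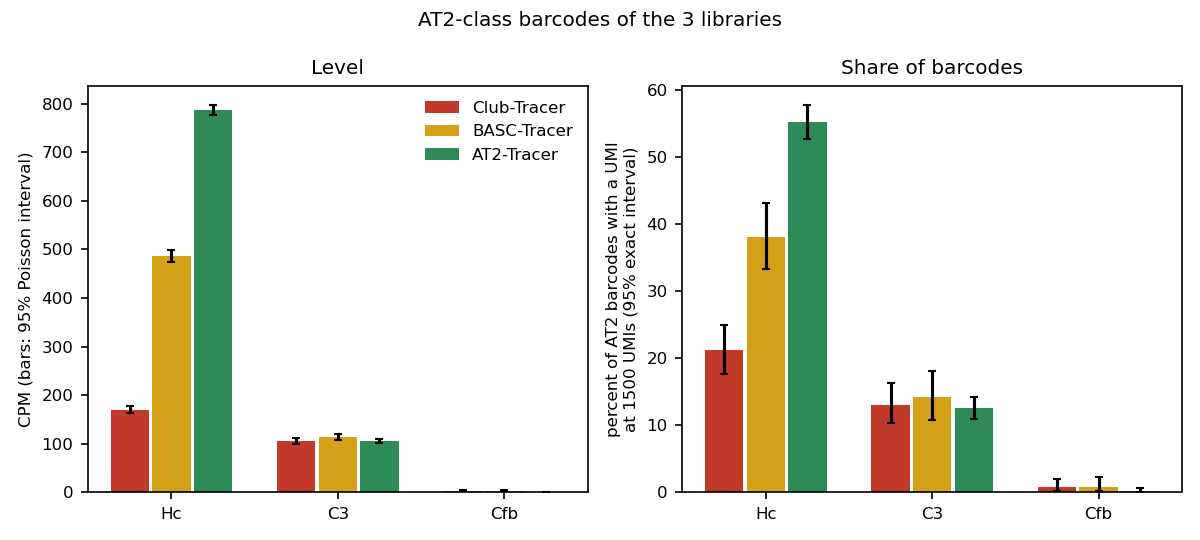
Hc, C3 and Cfb in AT2-class barcodes of the 3 libraries, as CPM with 95% Poisson intervals (left) and as the percent of barcodes with a UMI after thinning to 1500 UMIs with 95% exact intervals (right). Hc steps from 169.8 to 786 CPM across the libraries while C3 stays between 105 and 113 CPM.

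Within the AT2 class, barcodes were also divided by whether UMIs of Il33 and Itih4 together exceeded those of Lyz1, or the reverse. Barcodes with equal counts are on neither side, which left 86 and 180 of the 524 Club-Tracer barcodes. Hc was at 277 against 150.2 CPM for Club-Tracer, 673 against 374 CPM for BASC-Tracer and 863 against 754 CPM for AT2-Tracer. The ratios were 1.84 (1.66 to 2.05), 1.80 (1.66 to 1.95) and 1.14 (1.09 to 1.20). Each was under 2-fold, and so were those of C3, beside 0.679%, 1.51% and 0.137% of all genes that were at least 2-fold apart. On either side of this division Hc kept the order of the libraries, with 150.2, 374 and 754 CPM in barcodes led by Lyz1.

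The other alveolar classes carried little Hc. In the AT2-Tracer library Hc was 23.3-fold (20.1 to 27.2) lower in AT1 cells, the flat gas-exchange cells, and 32.5-fold (28.6 to 37.1) lower in transitional cells, the Krt8-rich and Cldn4-rich intermediates of injured alveoli, than in AT2 cells. At least 2-fold differences covered 18.4% of genes between AT1 and AT2, and 17.7% between transitional and AT2. The median gene was 0.32 higher in AT1 than in AT2 cells on the log2 scale, and relative to it the differences were -4.67 for Hc and -2.66 for C3. C3 separated these classes, at 16.8 CPM (13.5 to 20.7) in AT1 and 62.5 CPM (57.6 to 67.7) in transitional cells against 105 CPM in AT2 cells. In transitional cells C3 was 1.68-fold (1.54 to 1.84) lower than in AT2 cells, and transitional cells elsewhere were at 70.8 CPM (Club-Tracer) and 80.2 CPM (BASC-Tracer). The median gene was 0.36 higher in transitional than in AT2 cells, and relative to it the C3 difference was -1.07 on the log2 scale, past 2-fold. Clu, a fluid-phase inhibitor of the terminal complex, was 16.3-fold (15.8 to 16.7) higher in transitional cells, at 3551 against 219 CPM, and C6, a component of the terminal pore, was at 3.20 against 146 CPM.

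C3 was spread over many classes. Among the 18 groups of at least 50 barcodes its highest levels were 132 CPM (123 to 142) in BASC-Tracer club barcodes and 118 CPM (113 to 122) in Club-Tracer club barcodes, followed by the 3 AT2 groups. Of the members only C3 reached 20 CPM in either of the 2 club groups. C3 was within 2-fold between them, where 0.424% of 4719 genes at that level were at least 2-fold apart. The intervals of neighbours overlapped from the second rank, Club-Tracer club, down to the 14th, basal cells at 45.9 CPM, after which AT1 and ciliated groups lay at 1.69 to 16.8 CPM. In the Club-Tracer library the club class held 49.6% of C3 UMIs and the AT2 class 25.6%. Scgb1a1 took up 35.3% of all UMIs of the club class. With Scgb1a1 left out of the totals, C3 was at 182 CPM (175 to 189) in Club-Tracer club, 193 CPM (179 to 207) in BASC-Tracer club and 113 CPM (107 to 119) in Club-Tracer AT2 barcodes. The order of club above AT2 was therefore the same on both scales, with a wider gap on the second.

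Airway classes of the Club-Tracer library differed in C3, while Hc lay at 1.41 to 13.9 CPM in all 4 of them. Ciliated cells, which move mucus, had 10.7 CPM of C3 (8.17 to 13.8) in the Club-Tracer library, 0.0910 of the club level (0.0692 to 0.117). In that comparison 49.5% of all genes were at least 2-fold apart. By Leiden clusters of that library C3 was at 22.5 CPM in ciliated and 122 CPM in club cells. Basal cells, the airway progenitors, had 45.9 CPM (35.4 to 58.5), 0.390 of the club level, where 37.6% of genes were apart. The median gene was 0.91 higher in ciliated and 0.77 higher in basal than in club cells, and relative to it the C3 differences were -3.88 and -2.04 on the log2 scale. Upper airway secretory cells, set by Bpifa1, Scgb3a1 and Reg3g, had 94.5 CPM (83.4 to 107). Club transcripts were present in both neighbours, with the club panel at medians of 126 UMIs per 10000 in ciliated and 63.8 in basal cells against 329 in club cells, and their part in the C3 level was not tested. Regulators also differed: Serping1, the C1 inhibitor, was at 88.3 CPM in ciliated and 6.90 CPM in club cells, and Cd59a, a membrane inhibitor of the pore, at 70.3 and 8.18 CPM, both past 2-fold relative to the median gene as well.

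Macrophages held C3 as well. In the AT2-Tracer library C3 was at 77.0 CPM (69.1 to 85.5) in alveolar and 52.1 CPM (44.9 to 60.2) in other macrophages. Per 1000 Sftpc UMIs this came to 42.5 and 61.2, against 1.12 in the AT2 class and 1.90 in barcodes under 500 genes, so these UMIs were not in the ratio of free AT2 RNA. In other macrophages of the BASC-Tracer library C3 was at 104.6 CPM (84.8 to 128), and 1 barcode held 29 of the 97 UMIs. Hc in that group rested on 1 barcode that held 30 of 31 UMIs.

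Most Cfb UMIs lay in immune barcodes in the AT2-Tracer library and in airway secretory cells in the Club-Tracer library, which held few macrophages. Cfb was at 239.7 CPM (226 to 254) in alveolar macrophages, 148 CPM (132 to 166) in S100a8-high immune barcodes and 29.0 CPM (23.7 to 35.2) in other macrophages, against 1.25 CPM (0.871 to 1.74) in AT2 cells and 1.32 CPM in AT1 cells. After thinning, 25.7% (21.7 to 30.1) of alveolar macrophages had a Cfb UMI, and 73.4% did without thinning. The AT2 class of that library had 0.252% and 1.66%, at median depths of 16608 UMIs against 9867 in alveolar macrophages. Cfb in S100a8-high immune barcodes was 1.62-fold (1.42 to 1.84) lower than in alveolar macrophages, with 1.95% of genes at least 2-fold apart between them. Immune barcodes of all kinds held 94.3% of Cfb UMIs in the AT2-Tracer library.

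In the Club-Tracer library, where 6 barcodes passed the macrophage gate, Cfb UMIs were epithelial by 98.4%. The epithelial lineage held 59157797 of that library's 60155449 UMIs, so this share is near its share of all UMIs. The 6 macrophage barcodes, all alveolar, held 6 Cfb UMIs, or 0.946% of the gene's UMIs from 0.188% of the barcodes. Upper airway secretory cells had 44.9 CPM (37.3 to 53.5) and club cells 17.0 CPM (15.4 to 18.8), a ratio of 2.63 (2.14 to 3.23) where 7.77% of all genes were at least 2-fold apart. Relative to the median gene, 0.27 higher in upper airway secretory cells, the log2 difference of 1.18 became 0.90, under 2-fold. Few cells carried these UMIs: 12.2% of club and 24.8% of upper airway secretory barcodes had any, and 1 club barcode held 108 of the 400 UMIs of its class. BASC-Tracer club barcodes had 8.84 CPM (6.56 to 11.7). Ciliated, basal, AT1, AT2 and transitional groups all lay at or below 3.15 CPM. Cfb shares its locus with the read-through gene Gm20547, which is not among the counted features, so reads of both cannot be told apart.

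C1q marked other macrophages rather than alveolar macrophages. C1qa, C1qb and C1qc stood at 5232 CPM (5157 to 5308), 4537 CPM (4467 to 4608) and 4023 CPM (3957 to 4090) in other macrophages of the AT2-Tracer library, and at 58.2, 80.5 and 47.1 CPM in its alveolar macrophages. The ratios were 89.9 (79.6 to 102), 56.3 (50.8 to 62.7) and 85.4 (74.6 to 98.2), where 19.7% of 6036 genes were at least 2-fold apart. BASC-Tracer other macrophages had 4736, 3734 and 4167 CPM. After thinning, all 3 genes were seen together in 96.2% of 476 AT2-Tracer and 93.8% of 80 BASC-Tracer other macrophages, but in 1.14% of 439 alveolar macrophages.

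In epithelial classes the C1q genes were near 0. Epithelial classes of the AT2-Tracer library had 4.04 to 12.2 CPM of each. In the Club-Tracer library C1qa had 0 UMIs in each of the 6 epithelial groups, among them 1060 club barcodes, where 0 allows a level of up to 0.128 CPM. C1qa per 1000 UMIs of Apoe, an abundant macrophage transcript, was 37.0 in AT2, 83.6 in AT1 and 85.6 in transitional cells against 94.8 in barcodes under 500 genes of the AT2-Tracer library, so the low epithelial level is not read as expression. Alveolar macrophages were at 57.4 and S100a8-high immune barcodes at 61.3, also below 94.8. This ratio alone therefore does not set their C1q apart from free RNA. By level, C1qa was at 58.2 CPM (263 UMIs in 448 barcodes) and 417 CPM (852 UMIs in 182 barcodes). It was at 5.61 CPM (157 UMIs in 1630 barcodes) in AT2 cells and 255 CPM in barcodes under 500 genes. C1qb made up 43.3% and 42.7% of their C1q UMIs, against 32.4% in barcodes under 500 genes. The source of the C1q UMIs in alveolar macrophages and S100a8-high immune barcodes was not tested. Immune barcodes that passed no class gate held 39.6% to 41.7% of each C1q gene's UMIs in the AT2-Tracer library, with C1qa at 2214 CPM, so the gates leave a large share of C1q-bearing cells without a class.

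The 3 C1q genes lie in 1 cluster of 18.675 kb on the reverse strand of chromosome 4 (mm10), with C1qb at 136880129 to 136886187, C1qc at 136889804 to 136893065 and C1qa at 136895917 to 136898803, all protein-coding. Of all C1q UMIs in other macrophages of the AT2-Tracer library, C1qa made up 37.9%, C1qb 32.9% and C1qc 29.2%, and in the BASC-Tracer library 37.5%, 29.5% and 33.0%. Alveolar macrophages had 31.3%, 43.3% and 25.4% from 840 UMIs, and barcodes under 500 genes of that AT2-Tracer library 37.5%, 32.4% and 30.1%. In 5′ libraries each molecule is counted once, so CPM was not divided by gene length. Over the 18 groups the C1q genes correlated with each other at Pearson r of 0.994 to 0.998 on log2(CPM + 5), with other macrophages far above the remaining groups, while Hc and C3 had an r of 0.34. These points share libraries and background, and r is a description.

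Promoters of 4 of the 6 members were present in the RefSeq table (GRCm38.p6, 250 bases before to 50 after the start, all on the reverse strand), and they are shown because C1qb and C1qc ran together over the groups while Hc and C3 did not. C1qb spans chr4:136886151-136886450, C1qc chr4:136892865-136893164, Hc chr2:35061363-35061662 and C3 chr17:57228087-57228386. Match positions count from the RefSeq start, which need not be the gene end given by GENCODE. The C1qc window takes in 136893065, where the GENCODE gene begins on the reverse strand. Part of the C1qc bases before the RefSeq start therefore lie inside the GENCODE gene. Capitals mark matches, on either strand, to GAGGAA (the core bound by PU.1-type factors), TTGCNNAA (C/EBP-type) and TATAAA, none of which overlap here.
C1qb: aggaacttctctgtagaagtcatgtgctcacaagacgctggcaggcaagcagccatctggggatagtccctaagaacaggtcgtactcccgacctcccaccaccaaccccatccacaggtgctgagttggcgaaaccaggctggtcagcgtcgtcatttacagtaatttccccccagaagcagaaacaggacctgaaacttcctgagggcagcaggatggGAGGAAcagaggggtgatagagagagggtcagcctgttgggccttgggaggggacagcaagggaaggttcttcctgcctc
C1qc: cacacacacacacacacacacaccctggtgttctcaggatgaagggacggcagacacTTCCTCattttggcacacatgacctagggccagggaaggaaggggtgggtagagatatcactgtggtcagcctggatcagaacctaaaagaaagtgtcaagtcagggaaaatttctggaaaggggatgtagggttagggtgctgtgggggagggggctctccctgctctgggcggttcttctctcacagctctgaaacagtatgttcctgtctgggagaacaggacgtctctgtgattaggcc
Hc: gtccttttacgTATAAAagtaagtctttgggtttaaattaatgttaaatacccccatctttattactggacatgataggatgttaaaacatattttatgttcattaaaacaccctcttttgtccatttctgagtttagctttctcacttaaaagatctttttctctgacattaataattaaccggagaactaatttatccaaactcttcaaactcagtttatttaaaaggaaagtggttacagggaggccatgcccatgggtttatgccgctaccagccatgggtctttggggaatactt
C3: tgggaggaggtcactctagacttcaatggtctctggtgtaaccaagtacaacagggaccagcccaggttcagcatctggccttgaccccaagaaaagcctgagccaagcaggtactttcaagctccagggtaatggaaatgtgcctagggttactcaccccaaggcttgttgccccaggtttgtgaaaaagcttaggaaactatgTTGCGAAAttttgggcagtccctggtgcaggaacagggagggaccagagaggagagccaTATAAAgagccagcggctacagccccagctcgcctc
GAGGAA occurred once in C1qb, at position -30, and once in C1qc, at -193 as its reverse complement TTCCTC, and in neither Hc nor C3. It occurs in 28.3% of 32851 promoters of this length. TTGCNNAA occurred once, in C3 at -45 as TTGCGAAA (10.8% of promoters). TATAAA occurred in Hc at -239 and in C3 at 14 (13.6% of promoters). CAAGTG (NKX2-1-type, 13.6%) and an NF-kB-type motif (0.411%) had no match in these 4 windows. A match describes letters only, not a bound site. Hc lies on chromosome 2 from 34983331 to 35061438, C3 on chromosome 17 from 57203970 to 57228136 and Cfb on chromosome 17 from 34856374 to 34862518, all protein-coding and on the reverse strand. The antisense gene Gm13449, which overlaps Hc, had 5 UMIs in the AT2-Tracer library.

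Genes with the pattern most like each member, by Pearson r over the 18 groups among 6350 candidates, were Mfsd2a (0.93), Tgoln1, Sftpc, Acoxl and Il33 for Hc. For C3 they were Snhg8 (0.81), Ctsc, Trf, Myd88 and Tpt1, a weaker match. For Cfb they were Hacd4 (0.93), Tnfsf13, Pag1, Ikzf1 and Ms4a8a, and for C1qa Ccl4 (0.99), Slc11a1, Apoc4, Ly86 and Pou2f2.

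The rest of the complement system was followed through a list of 43 genes. Of these, 16 reached 20 CPM in the macrophage gate or the epithelial lineage of the AT2-Tracer library. The macrophage gate was at least 2-fold higher for 11 and the epithelial lineage for 4, where 16% and 21.9% of the 7236 genes were. The list's median log2 ratio was 4.33, against -0.29 for all genes. Among classical and lectin genes, C4b, which forms the classical convertase, was at 241 against 0.981 CPM, and Fcna, a ficolin that recognises sugars, at 130.4 against 0.420 CPM. Cfp, which stabilises the alternative convertase, was at 90.6 against 1.14 CPM. All 7 receptors measured were among the 11 genes higher in macrophages. C5ar1, the receptor for C5a, was at 278 times the epithelial level (211 to 375), and C3ar1, the receptor for C3a, at 215 against 1.06 CPM. The list was chosen with earlier results of these data known, so its counts are a description.

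Genes higher in the epithelial lineage of the AT2-Tracer library were the pore component C6 (84.7 against 23.2 CPM) and 3 inhibitors, Clu (984 against 7.93 CPM), Cd55, which breaks up convertases (62.9 against 8.80 CPM), and Cd59a (24.4 against 4.46 CPM). Cr1l, a further membrane regulator, was within 2-fold. With the median gene as the reference, the split over all genes moved from 1161 higher and 1588 lower in the macrophage gate to 1426 and 1239, and the list kept its counts of 11 and 4. In the BASC-Tracer library, other macrophages against the epithelial lineage gave 13 higher and 1 lower of 16, where 19.6% and 22.2% of all genes were, 41.8% in all. There C6 lay the other way, at 236 CPM in other macrophages against 80.7 CPM in the epithelial lineage. Clu was again higher in the epithelial lineage (748 against 113 CPM), and Cd55 was within 2-fold (163 against 89.5 CPM). The contrasts of the libraries use unlike groups, because the AT2-Tracer macrophage gate also includes alveolar macrophages. Between the macrophage classes of that library, C6 was at least 2-fold higher in other macrophages.

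**Figure D4:**
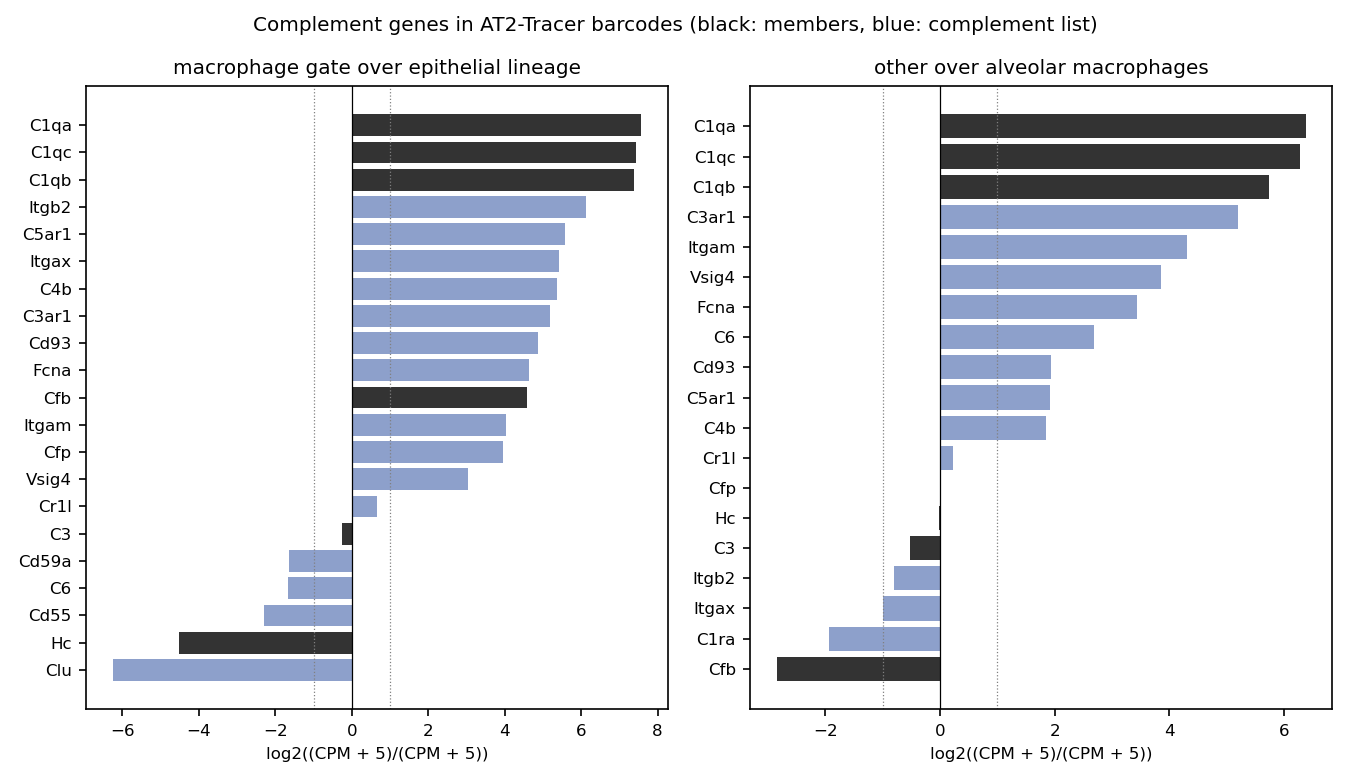
Log2 ratios with a pseudocount of 5 CPM in the AT2-Tracer library for the members (black) and genes of the measured complement list (blue), macrophage gate over epithelial lineage (left) and other over alveolar macrophages (right), with dotted lines at 2-fold. Cfb is on the macrophage side at left and on the alveolar side at right, where C1q and the receptor C3ar1 lie farthest to the side of other macrophages.

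Alveolar and other macrophages parted by gene. Of 14 list genes measured between them, 9 were at least 2-fold higher in other macrophages (background 11%) and 1 in alveolar macrophages (8.71%). C3ar1 was at 478 against 8.19 CPM, a ratio of 58.3 (42.2 to 83.2), Itgam, a chain of complement receptor 3, at 185 against 4.65 CPM, and Vsig4, a receptor for C3 fragments, at 83.4 against 1.11 CPM. Alveolar macrophages had 8.26-fold (6.74 to 10.2) more Cfb, together with C1ra, a protease of the C1 complex, at 26.1 against 3.10 CPM. Cfp did not separate them, at 90.7 and 90.5 CPM.

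Other macrophages were not uniform in the rest of the cascade. Their 483 barcodes in the AT2-Tracer library were divided, after the values had been seen, into 234 with more Cd163 than Mmp12 UMIs and 108 with the reverse. The rest, with equal counts of both, are on neither side. C1qa was at 5398 and 4175 CPM, C1qb at 4328 and 4055 CPM, and C1qc at 4258 and 3377 CPM, ratios of 1.29, 1.07 and 1.26. C3 was 3.43-fold (2.17 to 5.61) higher on the Cd163 side, at 69.7 against 20.3 CPM, and Cfb 6.33-fold (3.25 to 13.7), at 53.6 against 8.47 CPM. In this comparison 13.8% of all genes were at least 2-fold apart, and 10 of 16 list genes were.

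The 8 list genes on the Cd163 side (background 8.45%) included C2, C4b, Fcna, C6, Cd55, C5ar2 and Vsig4. C4b was at 924 against 25.4 CPM, a ratio of 36.4 (25.3 to 54.1), and Vsig4 at 215 CPM against 0 UMIs, at least 84.6-fold by a floor of 3 counts over the group. Fcna was at 636 against 26.2 CPM. Itgax, a chain of complement receptor 4, and Itgb2, the chain that both receptors share, ran the other way (background 5.4%), with Itgax at 15.4 against 362 CPM and Itgb2 at 219 against 516 CPM. In the BASC-Tracer library 76 of 80 other macrophages had more Cd163 than Mmp12 UMIs, and the group was higher than its AT2-Tracer counterpart in Cfb (2.79-fold, 2.04 to 3.79), C4b (1380.0 against 408 CPM), Fcna (957 against 270.4 CPM) and Vsig4 (458 against 83.4 CPM), where 7.39% of genes were apart. Its C1q ratios were 0.823 to 1.04. The share of the 2 kinds of barcode differed between the libraries, and its part in these differences was not tested.

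**Figure D5:**
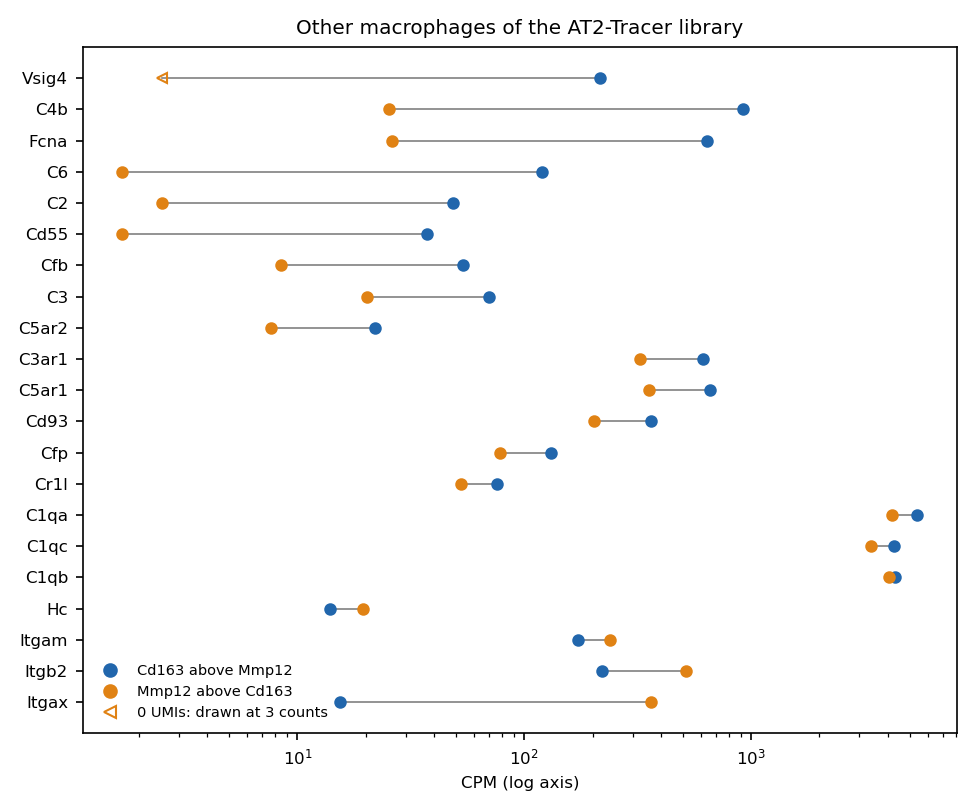
Members and measured complement list genes in other macrophages of the AT2-Tracer library, as CPM on a log axis, for 234 barcodes with more Cd163 than Mmp12 UMIs (blue) and 108 with the reverse (orange). The C1q genes lie within 1.29-fold of each other while C4b is 36.4-fold apart.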

How the data were processed

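The deposited matrices held raw UMI counts per gene and barcode, as whole numbers already limited to barcodes called as cells. They were made by the authors with Cell Ranger 6.1.1 on genome build mm10, per the submitters' processing notes, from 5′ libraries, per the labels' protocols. The annotation release was not given in the sources used here. The members and gene lists were chosen with earlier results of these data known.

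Barcodes with at least 500 genes and at most 15% mitochondrial UMIs were kept (3196, 1402 and 5859). Deposited depth was 62570890, 29013077 and 72256580 UMIs. A barcode took the lineage with at least 3 UMIs and at least 0.667 of the UMIs of 4 lineage panels, then the class with the highest panel score, at 0.5 or more of its 99th percentile and 0.1 ahead of the next. Counts were summed per library and class and given as CPM with exact Poisson 95% intervals, ratios with exact conditional intervals and shares with Clopper-Pearson intervals. These cover counting error only. A count of 0 allows 3 counts. Shares were also computed after thinning to 1500 UMIs. Genes at 20 CPM or more in either group were called apart at 2-fold on log2(CPM + 5), which understates differences of low genes. The text names all members, complement list genes at 20 CPM or more in either group (most UMIs first), and the 5 genes most alike over groups by Pearson correlation. An item of the complement list is counted but not reported here. Doublets were not removed beyond the gates. Scrublet was run as an alternative. The ratio calculation was tested on simulated data. Gene positions came from GENCODE on mm10. Python 3.11.15, numpy 2.4.6, scipy 1.17.1, pandas 2.3.3, scanpy 1.11.5 and matplotlib 3.10.9 were used.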

Additional observations from a re-analysis of the deposited data

Results flagged for a closer look

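Barcodes with under 500 genes were left out of the cell classes and served only as a scale for background, yet most of the members had UMIs in them above the 3 counts that a count of 0 allows. In the Club-Tracer library they held Hc at 34.3 CPM and C3 at 44.4 CPM. In the BASC-Tracer library they held Hc at 115 CPM, C3 at 52.7 CPM, C1qa at 113 CPM, C1qb at 92.2 CPM and C1qc at 88.9 CPM. In the AT2-Tracer library they held Hc at 252 CPM, C3 at 45.8 CPM, Cfb at 10.1 CPM, C1qa at 255 CPM, C1qb at 220.1 CPM and C1qc at 204.7 CPM. These barcodes numbered 1872, 959 and 2686, and damaged cells and droplets with free RNA cannot be told apart among them.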

How the results depend on the processing

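Values in this paragraph are log2 ratios. Ratios without a pseudocount were recomputed under 10 other settings and 3 more that were chosen after seeing the data. C1q, Hc and Cfb kept their direction in each of them, while the C3 ratios, near 0, did so in 12 of 13 (epithelial over macrophage) and 10 of 11 (AT2 class). C1q, macrophage gate over epithelial lineage, was 8.26, and became 8.47 with a minimum of 1000 genes, 9.28 with a lineage gate at 0.9, 7.98 and 8.43 with score limits of 0.6 and 0.4, 8.76 without Scrublet doublets, 8.55 with median-ratio scaling, 7.17 with barcodes weighted equally, 8.77 with Leiden clusters, 7.78 without the neutrophil panel, and 3.21 or 9.42 with alveolar or other macrophages only. Hc, epithelial over macrophage, was 4.93, with 5.26, 5.51, 4.53, 5.22, 4.63 and 4.08 for the lineage gate, the 2 score limits, Scrublet, median-ratio scaling and Leiden. C3, epithelial over macrophage, was 0.29, with 0.14 (score limit of 0.6), -0.0025 (median-ratio scaling), 0.031 (equal weights), 0.46 (Leiden), 0.067 and 0.63 (alveolar or other macrophages only), so its direction rests on the scaling. Cfb, epithelial over macrophage, was -6.82, with -5.97 (equal weights), -7.52 and -4.48 (alveolar or other macrophages only). For Hc in the AT2 class, Club-Tracer over AT2-Tracer, -2.21 became -2.12 (lineage gate), -2.06 (median-ratio scaling), -2.13 (equal weights) and -1.99 (Leiden), and for C3 the value of 0.01 became 0.16 (scaling) and 0.17 (Leiden). The cause of these shifts was not tested. The count of 15 list genes apart ranged from 13 to 18. No paired analysis was possible because each lineage had 1 library. Low counts limit Cfb in AT2 cells and C1q outside macrophages, and with 1 library per lineage no value speaks to variation between animals.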

Other observations

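Stromal barcodes, too few for the comparisons (26 in the AT2-Tracer library, with Col1a1 at 5311 CPM), had C3 at 395 CPM (334 to 464), from 149 UMIs of which 31 were in 1 barcode. Cfb stood at 50.4 CPM there, from 19 UMIs. The S100a8-high immune barcodes had Cfb at 148 CPM, nearer to alveolar than to other macrophages, and C1qa at 417 CPM from 26.4% of barcodes, between them. The proportions of their C1q UMIs were 31.7% C1qa, 42.7% C1qb and 25.5% C1qc, against 31.3%, 43.3% and 25.4% in alveolar macrophages.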
